A study of Homo sapiens with 15 samples.

Results

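Cells given a mismatch polyamide and dexamethasone were set against cells given mifepristone and dexamethasone, to describe the part of a glucocorticoid response that is present under the control ligand and absent under a receptor antagonist. The arrays were chosen by their titles alone: 3 arrays of the mismatch polyamide and 3 of mifepristone, 6 of the 15 arrays of the series. All RNA came from A549, a single established epithelial line from a human lung adenocarcinoma, kept in F12K medium whose serum was charcoal-treated, which depletes steroid hormones. The 5 groups had 3 arrays each: mismatch polyamide for 48 h with dexamethasone for 6 h, mifepristone for 48 h with dexamethasone for 6 h, match polyamide for 48 h with dexamethasone for 6 h, dexamethasone alone for 6 h, and non-treated cells. Both groups compared therefore carry the hormone, and in this pair alone an effect of the polyamide and an effect of the antagonist cannot be told apart. The sources used here give neither doses nor the polyamides' target sequences, and do not say whether replicate arrays are separate cultures.

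Dexamethasone is a synthetic glucocorticoid that binds the glucocorticoid receptor, a nuclear receptor held by chaperones in the cytoplasm until hormone binds. The activated receptor enters the nucleus, binds DNA at paired, inverted hexamers known as glucocorticoid response elements and raises nearby genes, and it lowers many inflammatory genes through other factors. Mifepristone occupies the same receptor without turning most of its targets on. Pyrrole-imidazole polyamides are synthetic ligands of the DNA minor groove that read short sequences, and a match and a mismatch compound differ in which sequence they fit. In lung epithelium glucocorticoids are known for raising anti-inflammatory genes, sodium and water transport genes and brakes on growth.

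The 6 arrays had not been scaled alike, and a sign of RNA integrity given below leaned apart between the groups, with overlap. The 2% trimmed mean of the deposited signal was 91.3 to 137 on the mismatch arrays and 119 to 146 on the mifepristone arrays, so all levels below are signals after quantile normalisation, and all differences are on the log2(signal + 16) scale, mismatch minus mifepristone unless another pair is named. The 3'/5' signal ratio of the ACTB control probe sets, a sign of RNA integrity, was 1.41 to 1.99 on the mismatch arrays. It was 1.32 to 1.43 on the mifepristone arrays, so the ranges overlap. The same ratio of the GAPDH control probe sets was 0.916 to 1.03 on the mismatch arrays and 0.931 to 1.03 on the mifepristone arrays. The part of RNA integrity in the differences was not tested. Of the epithelial markers 9 of 10 could be tested, and their summed signal was 17266 to 17996 on the mismatch arrays and 15874 to 16594 on the mifepristone arrays. The leukocyte markers that could be tested, 5 of 10, summed to 98.7 to 113 on the mismatch arrays and 91.5 to 101 on the mifepristone arrays. Fibroblast markers summed to 408 to 479 against 313 to 375 over 8 of 10 genes, with ACTA2 (0.61, adjusted p = 0.0022) the only one called, and endothelial markers to 58.6 to 61.5 against 51.0 to 60.3 over 3 of 8 genes. In bulk RNA a change in the share of cells and a change per cell cannot be told apart.

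In a principal component analysis of all tested probe sets the mismatch arrays lay between the match arrays and the rest on the first component, and beside the dexamethasone arrays on the second. The first component held 39.4% of the variance, with scores of 31.9 to 35.6 for mismatch, 60.5 to 67.0 for match and -36.7 to -30.2 for the mifepristone, dexamethasone and non-treated arrays together. On the second component, 10.2% of the variance, scores were -36.4 to -28.9 for mismatch and -17.8 to -13.7 for dexamethasone alone, against 10.0 to 11.9 for mifepristone and 12.5 to 17.6 for non-treated cells. The match arrays scored 20.0 to 26.2 there. The groups did not overlap on the second component.

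**Figure D1:**
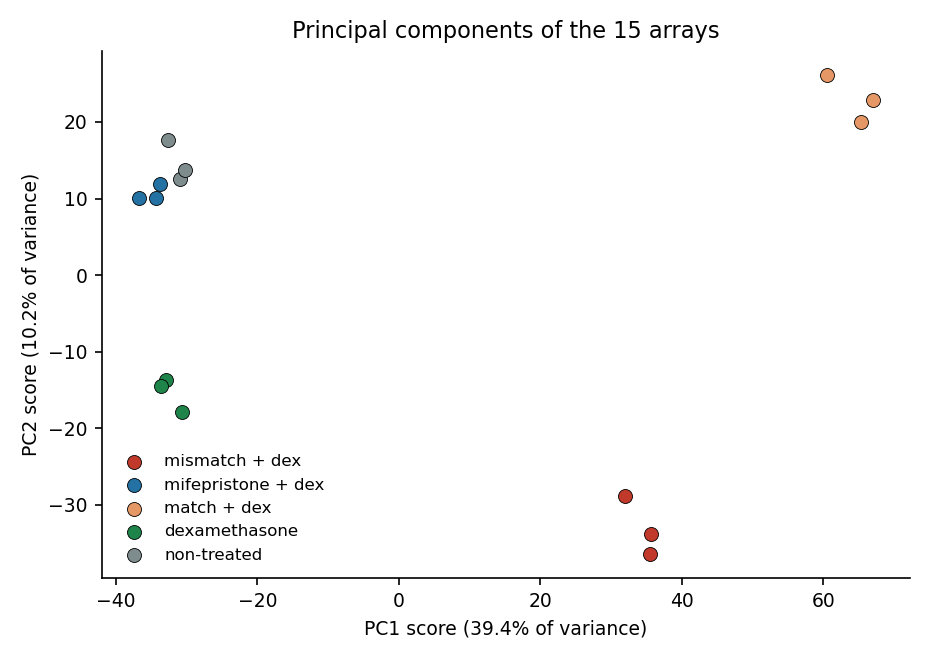
Scores of the 15 arrays on the first and second principal components of log2(signal + 16) over the tested probe sets, with the share of variance on each axis. Points are arrays and colours are the 5 groups. The mismatch arrays (31.9 to 35.6 on the first component) stand apart from the mifepristone arrays (below -30) and, on the second component, on the side of dexamethasone alone.

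Of 16358 genes tested, 2795 were higher (17.1%) and 2028 lower (12.4%) on the mismatch arrays than on the mifepristone arrays, at an adjusted p under 0.05 from limma. At 2-fold or more, 262 genes were higher (1.60%) and 411 lower (2.51%). The median difference of all genes was 0.06. This balance rested on the scaling: 51.1% of the called probe sets were higher as reported, 49.7% with arrays scaled to 1 trimmed mean, 36.5% with arrays centred on their medians, 13.5% on the signals as deposited and 6.40% with arrays scaled by the spiked hybridization controls, with the median of all genes at 0.06, 0.06, 0.02, -0.13 and -0.24 in the same order. Changes are therefore read relative to the median gene.

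The hormone response itself was defined on arrays outside the 6 compared. Dexamethasone alone against non-treated cells raised 139 genes at least 2-fold (0.850% of genes tested) and lowered 55 (0.336%). Of the 139 raised genes, 101 were higher on the mismatch arrays than on the mifepristone arrays (72.7%, beside 17.1% of all genes), 11 were lower and 27 were not called. Their median difference was 0.82, with quartiles of 0.33 and 1.40, beside 0.06 over all genes. Of the 55 lowered genes, 41 were lower on the mismatch arrays (beside 12.4% of all genes), 4 were higher and 10 were not called, with a median of -0.83 and quartiles of -1.18 and -0.33. The median of the lowered genes was -0.54 when replicate 3 of dexamethasone alone was left out of the fit, which also changes which genes are chosen.

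Set against the other groups, the mismatch arrays held most of the rise and the mifepristone arrays little of it. Over the 139 raised genes the median difference from non-treated cells was 1.15 for mismatch, 0.24 for mifepristone and 1.39 for dexamethasone alone. Against non-treated cells 115 of the 139 were called higher with mismatch (15% of all genes) and 21 with mifepristone (0.171% of all genes). Against dexamethasone alone the medians were -0.42 for mismatch, -1.15 for mifepristone and -0.96 for match, with 71 of the 139 called lower with mismatch (11.8% of all genes), 131 with mifepristone (2.76%) and 101 with match (17.4%), and 22 called higher with mismatch (17.9%). Over the 55 lowered genes the median difference from non-treated cells was -0.99 for mismatch, -0.29 for mifepristone and -1.25 for dexamethasone alone. These side-by-side values share the dexamethasone or the non-treated arrays, which also chose the genes.

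The size of the rise with dexamethasone went with the size of the difference. The 86 genes raised by 1 to 1.5 log2 units had a median mismatch minus mifepristone difference of 0.61, the 32 raised by 1.5 to 2 had 1.12, and the 21 raised by 2 or more had 1.28, with 53, 29 and 19 of them called higher. As a description across genes, which are not independent replicates, the correlation of the hormone's effect with the mismatch minus mifepristone difference was 0.70 over the 194 responsive genes, 0.42 within the 139 raised, 0.25 within the 55 lowered and 0.18 over all genes. The 2 comparisons share no arrays. At any fold the response was less separated: of 522 raised genes 250 were higher and 89 lower, with a median of 0.27, and of 589 lowered genes 253 were lower and 109 higher, with a median of -0.18.

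**Figure D2:**
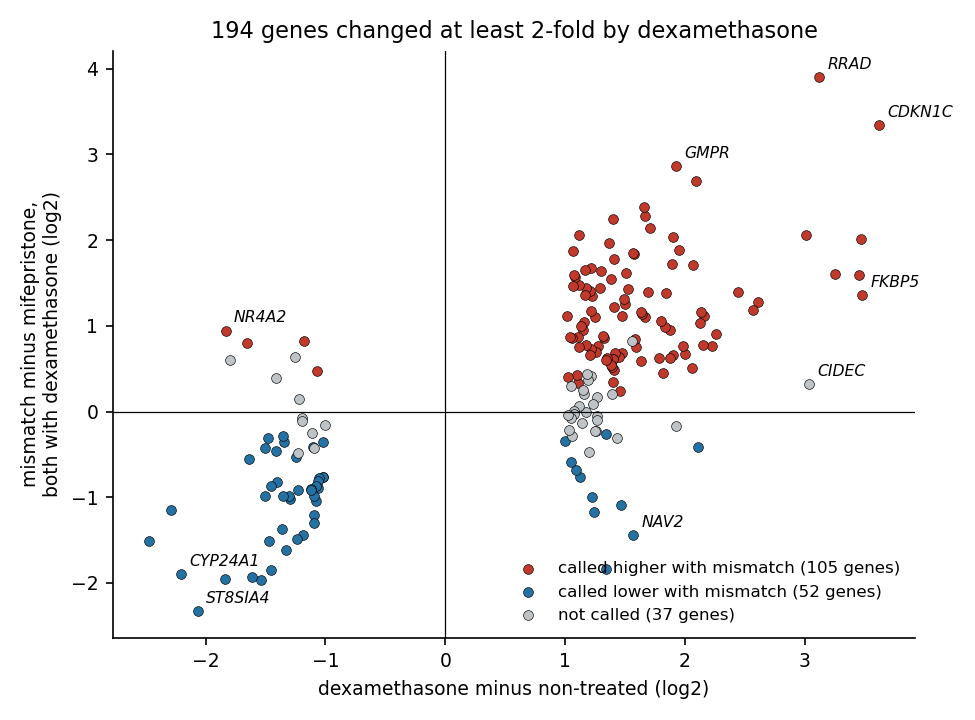
Each point is 1 of the 194 genes changed at least 2-fold by dexamethasone, with the dexamethasone minus non-treated difference on the x axis and the mismatch minus mifepristone difference on the y axis, both in log2 units. Points are coloured by the call on the y axis (105 higher, 52 lower, 37 not called). Most raised genes lie above 0 and most lowered genes below it.

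Among the brakes on growth, the members raised by the hormone were all higher with mismatch. This list and the gene lists below were drawn with earlier results of these arrays known, so their counts are not independent evidence. CDKN1C encodes p57, an inhibitor of cyclin-dependent kinases. Its signal was 412, 362 and 377 on the mismatch arrays, against 21, 26 and 23.4 on the mifepristone arrays. It was 362, 397 and 436 with dexamethasone alone and 15.9, 14.6 and 23.0 in non-treated cells, so mismatch lay at the level of the hormone alone and mifepristone near that of non-treated cells. The difference was 3.34 (SE 0.12, adjusted p = 7.2e-13), and the gene's other probe sets gave 1.93 to 2.45. RRAD, a small GTPase of the RGK family that restrains calcium channels, had signals of 368, 354 and 311 on the mismatch arrays, against 17.1, 1.44 and 8.25 on the mifepristone arrays. All 3 mismatch arrays were also above the dexamethasone arrays, at 181, 182 and 212, and the difference from mifepristone was 3.90 (SE 0.18, adjusted p = 4.2e-12). GADD45A, a stress-induced growth arrest gene, had 612, 646 and 571 with mismatch, against 148, 166 and 163 with mifepristone (1.84, adjusted p = 3.7e-12). Of the 22 tested genes of this list, 14 were higher (17.1% of all genes), 1 lower (12.4%) and 7 not called, with a median of 0.68. All 11 members that dexamethasone raised were among the 14 (3.19% of all genes were raised by dexamethasone). Match also raised 14 of the 22 against dexamethasone alone (21.5% of all genes). With the hybridization controls 8 were higher and 2 lower, with a median of 0.33. ERRFI1, a feedback inhibitor of the EGF receptor, rose by 1.13, NDRG1 by 1.45 and MCL1, an anti-apoptotic BCL2 relative, by 0.88.

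The anti-inflammatory targets kept a large part of their level. TSC22D3 encodes GILZ, a leucine zipper protein that blocks NF-kappaB and AP-1 and is among the most used readouts of the receptor. It had 836, 819 and 851 on the mismatch arrays, against 196, 218 and 154 on the mifepristone arrays. Dexamethasone alone gave 1105, 1053 and 1145 and non-treated cells 133, 119 and 118, so the mismatch arrays were all below the hormone alone and all far above mifepristone. The difference was 2.07 (SE 0.09, adjusted p = 4.2e-12), with 1.59 on a second probe set and 0.27 (adjusted p = 0.39) on another. ZFP36, which encodes tristetraprolin, a protein that marks cytokine mRNAs for decay, had 839, 761 and 772 with mismatch, against 428, 300 and 351 with mifepristone (1.11, SE 0.10, adjusted p = 4.0e-08). NFKBIA, the inhibitor that holds NF-kappaB in the cytoplasm, differed by 0.87, and DUSP1, a phosphatase of the MAP kinases, by 0.62 (adjusted p = 6.0e-09), with signals of 5001, 4773 and 5192 against 3179, 3383 and 3170. RGS2, which shortens G protein signalling, had 693, 764 and 672 with mismatch, against 258, 243 and 276 with mifepristone (1.40, SE 0.09, adjusted p = 4.0e-10), while dexamethasone alone gave 1120, 1224 and 1176. Of the 22 genes of the list 11 were higher, 1 (ANXA1, -0.16) lower and 10 not called, with a median of 0.52, beside 17.1% higher and 12.4% lower over all genes. The 11 include CD55, SPHK1, ADORA2B and TNIP1, which dexamethasone did not call. On the signals as deposited 7 were higher and 0 lower, with a median of 0.27, and with the hybridization controls 6 were higher and 2 lower, with a median of 0.14. The hormone raised 9 of the 22, and 7 of these 9 were higher with mismatch. SERPINA3 (-0.03, adjusted p = 0.97) and ZFP36L2 (-0.09, adjusted p = 0.29) were not called. Match called 8 of the 22 higher than dexamethasone alone (21.5% of all genes) and 5 lower (17.4%). The summed signal of the list was 20479 to 21698 with mismatch and 21557 to 22492 with match. It was 21148 to 21924 with dexamethasone alone and 15606 to 16152 with mifepristone.

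The receptor's own partners divided. FKBP5, a co-chaperone that lowers the receptor's affinity for hormone and is itself strongly induced by it, had 1480, 1573 and 1504 on the mismatch arrays, against 594, 560 and 599 on the mifepristone arrays. Dexamethasone alone gave 2659, 2711 and 2828, match 509, 586 and 566, and non-treated cells 213, 229 and 251, so no group overlapped another in this gene except match and mifepristone, whose values interleave. The difference was 1.36 (SE 0.07, adjusted p = 2.8e-11), with 1.29 on a second probe set and 0.47 (adjusted p = 0.20) on another. NR3C1, the receptor itself, had 857, 836 and 907 with mismatch, against 1388, 1486 and 1276 with mifepristone (-0.66, SE 0.08, adjusted p = 1.8e-06). Match also lowered it against dexamethasone alone (-0.75), and dexamethasone lowered it by 0.34 against non-treated cells. The coactivators NCOA1 (-0.91), NCOA2 (-1.09) and CREBBP (-0.59) and the corepressor NRIP1 (-0.64) were lower with mismatch, none of them called with dexamethasone, while the chaperones HSP90AA1 (0.08, adjusted p = 0.15) and HSP90AB1 (0.12, adjusted p = 0.087) were not called. Over the 16 tested genes 4 were higher (17.1% of all genes), 6 lower (12.4%) and 6 not called. Their median of 0.05 was -0.13 on the signals as deposited and -0.27 with the hybridization controls.

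**Figure D3:**
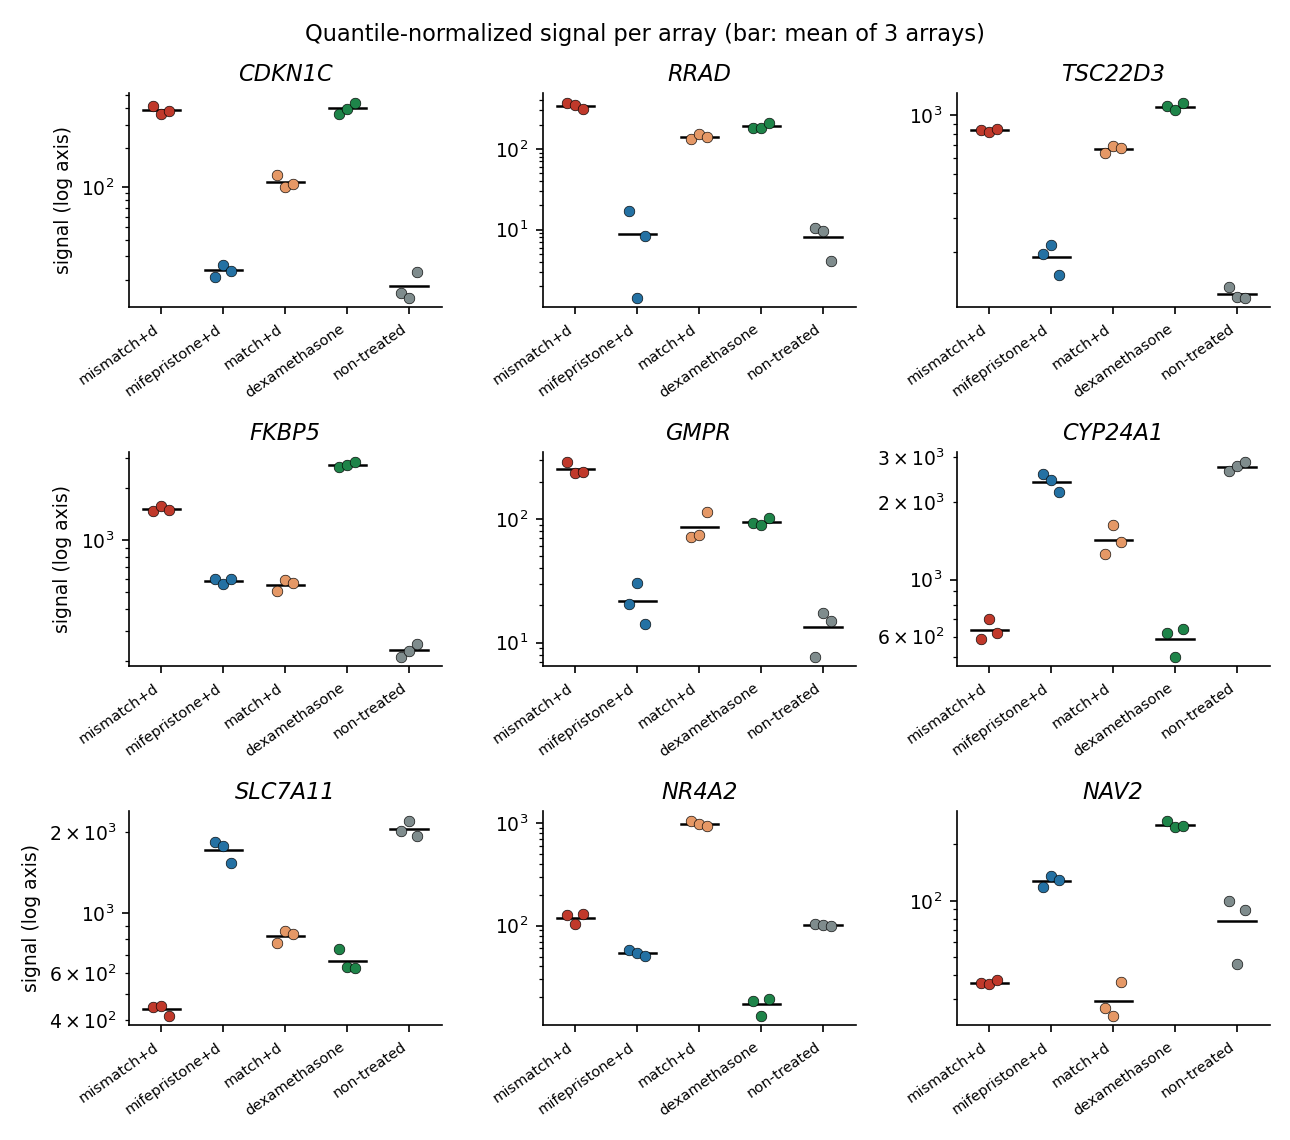
Quantile-normalised signal, on a log axis, of 9 genes in each of the 15 arrays, with groups running from mismatch and mifepristone through match and dexamethasone to non-treated. Points are arrays and bars are means of 3. CDKN1C, RRAD, TSC22D3, FKBP5 and GMPR are higher with mismatch than with mifepristone, CYP24A1, SLC7A11 and NAV2 are lower, and NR4A2, lowered by dexamethasone, is higher.

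Several induced transcription factors were higher with mismatch. KLF4 had 811, 747 and 750 with mismatch, against 225, 234 and 231 with mifepristone (1.67, adjusted p = 3.2e-11), with no overlap. KLF9 differed by 1.10 (adjusted p = 0.00015), with 0.35 (adjusted p = 0.40) on a second probe set, KLF15 by 1.64 and CEBPD, a driver of fat and acute-phase genes, by 0.75. PER2, a clock repressor, differed by 1.44, while NR1D2, a clock nuclear receptor that the hormone raised by 1.09, was lower with mismatch (-0.68, adjusted p = 0.011). TFCP2L1, a CP2-family factor of transporting epithelia and 1 of the strongest responders, had 284, 342 and 306 on the mismatch arrays, against 99.5, 95.3 and 81.7 on the mifepristone arrays (1.60, SE 0.11, adjusted p = 1.9e-09). Another probe set gave 1.43, and one that dexamethasone raised by 2.24 gave 0.09 (adjusted p = 0.88). Of 23 genes tested 12 were higher (17.1% of all genes), 4 lower (12.4%) and 7 not called, with a median of 0.57. Of the 14 raised by dexamethasone 9 were higher. With the hybridization controls 6 were higher and 5 lower, with a median of 0.22. ZBTB16, a textbook target in other tissues, was called neither with dexamethasone nor here (0.22, adjusted p = 0.67).

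Among genes of sodium and water transport, SCNN1A and AQP3 were above even the level of dexamethasone alone. AQP3 was also 1 of the 9 raised genes that match called higher than dexamethasone alone (21.5% of all genes). SCNN1A, the alpha subunit of the epithelial sodium channel, had 396, 398 and 370 on the mismatch arrays, against 61.7, 75.2 and 64.2 on the mifepristone arrays, and 139, 147 and 163 with dexamethasone alone. Its difference was 2.28 from mifepristone (SE 0.18, adjusted p = 7.4e-09) and 1.29 from dexamethasone (adjusted p = 1.6e-05). SCNN1G, the gamma subunit, differed by 2.15 and AQP3, a water and glycerol channel, by 1.48, with 1200, 1213 and 1210 against 491, 363 and 428. A second probe set of SCNN1A gave 0.32 (adjusted p = 0.52) and one of SCNN1G 0.36 (adjusted p = 0.35), neither called with dexamethasone, while those of AQP3 gave 0.93 and 0.94. SGK1, the kinase that keeps the channel at the surface, differed by 0.79. NEDD4L, the ubiquitin ligase that removes the channel and that SGK1 inhibits, was lower (-0.73), and so was the adhesion protein CDH1 (-0.92), both raised by dexamethasone alone. A second probe set of CDH1 gave -0.44 (adjusted p = 0.088) and was not called with dexamethasone (0.22, adjusted p = 0.66). Over 23 genes 8 were higher (17.1% of all genes), 5 lower (12.4%) and 10 not called. Their median was 0.14 (-0.06 with the hybridization controls), and 6 of the 9 raised by dexamethasone were higher.

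Genes of lipid and fuel metabolism were kept in part. ANGPTL4, a secreted inhibitor of lipoprotein lipase, had 276, 299 and 217 on the mismatch arrays, against 55.9, 86.9 and 86.5 on the mifepristone arrays (1.61, SE 0.16, adjusted p = 2.2e-07). IGFBP1 differed by 0.67 and ACSL1, which activates long-chain fatty acids, by 0.51, and both were below dexamethasone alone (-0.78 and -0.92). HSD11B2, which inactivates cortisol, had 50.8, 38.7 and 47.3 with mismatch, against 1.66, 1.36 and 11.5 with mifepristone (1.59). CIDEC, a lipid droplet protein that dexamethasone raised by 3.03, was not called: 166, 133 and 147 with mismatch against 111, 138 and 99.3 with mifepristone, overlapping, with dexamethasone alone at 450, 543 and 520 (0.32, adjusted p = 0.074). PDK4, which closes the entry of pyruvate into the citric acid cycle, was lower with mismatch, at 895, 859 and 967 against 1090, 1022 and 1153 (-0.26, adjusted p = 0.017), and mifepristone itself left it 0.99 above non-treated cells (adjusted p = 6.7e-07). Over 24 genes 12 were higher (17.1% of all genes), 3 lower (12.4%) and 9 not called. Their median was 0.33 (-0.04 with the hybridization controls), and 9 of the 13 raised by dexamethasone were higher.

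Metallothioneins, small cysteine-rich proteins that bind zinc and copper and respond to both metals and glucocorticoids, were higher with mismatch, at a level below that of the hormone alone. MT1X had 1401, 1414 and 1295 on the mismatch arrays, against 723, 804 and 880 on the mifepristone arrays. Dexamethasone alone gave 2752, 2959 and 3035 and non-treated cells 712, 694 and 772, so mifepristone lay near the untreated level and mismatch between that and the hormone. The difference was 0.76 (SE 0.08, adjusted p = 2.4e-07). MT1H differed by 0.90 (566, 632 and 502 against 248, 306 and 335), MT1F by 0.77, MT1E by 0.63 and MT2A by 0.59 (adjusted p = 0.0015). These 5 are all members of the list that dexamethasone raised. With the zinc exporter SLC30A1 and the metal sensor MTF1, neither called with dexamethasone, 7 of 8 genes were higher (17.1% of all genes) and 1 not called. Their median was 0.67. With the hybridization controls the median was 0.31 and 1 of the 8 was called. Metallothionein genes are near-identical copies, so their probe sets can share signal and are not 8 independent readings.

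The promoters of responsive genes are shown because receptor elements and metal elements are the known controls of these genes; the letters are from RefSeq on GRCh38.p14, 250 bases before the start site, all on the plus strand, with matches in capitals. CHST7, a sulfotransferase of chondroitin chains, had the palindrome core, GNACA and TGTNC with 3 bases between them (which reads alike on both strands), at chrX:46573515-46573764, first base 244 bases before the start site. The metallothionein windows, at chr16:56682220-56682469 (MT1X), chr16:56669564-56669813 (MT1H) and chr16:56608334-56608583 (MT2A), have the metal response element core TGCGCNC in capitals, with 2, 4 and 2 matches over both strands.
CHST7: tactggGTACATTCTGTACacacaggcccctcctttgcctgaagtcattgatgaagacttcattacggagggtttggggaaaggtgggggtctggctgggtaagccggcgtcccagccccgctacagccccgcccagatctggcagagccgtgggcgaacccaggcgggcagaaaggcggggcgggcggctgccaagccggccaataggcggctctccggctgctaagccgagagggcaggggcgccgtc
MT1X: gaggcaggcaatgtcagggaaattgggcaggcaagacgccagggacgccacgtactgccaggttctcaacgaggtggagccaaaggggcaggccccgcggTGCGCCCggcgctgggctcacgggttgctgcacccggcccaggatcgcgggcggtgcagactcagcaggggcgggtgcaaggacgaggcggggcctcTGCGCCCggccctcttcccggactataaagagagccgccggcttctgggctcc
MT1H: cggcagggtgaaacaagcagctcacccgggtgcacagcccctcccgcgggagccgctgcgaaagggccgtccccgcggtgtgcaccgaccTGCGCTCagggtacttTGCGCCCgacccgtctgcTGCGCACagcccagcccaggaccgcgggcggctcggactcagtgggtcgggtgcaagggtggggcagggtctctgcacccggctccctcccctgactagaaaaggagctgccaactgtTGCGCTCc
MT2A: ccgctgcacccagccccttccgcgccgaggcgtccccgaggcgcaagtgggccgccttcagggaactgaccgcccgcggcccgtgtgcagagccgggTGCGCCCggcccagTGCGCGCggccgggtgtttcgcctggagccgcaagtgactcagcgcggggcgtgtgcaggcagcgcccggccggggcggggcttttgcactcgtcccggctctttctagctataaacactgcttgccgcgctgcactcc

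CHST7 had 786, 763 and 736 on the mismatch arrays, against 165, 124 and 156 on the mifepristone arrays (2.25, SE 0.10, adjusted p = 3.7e-12). Dexamethasone alone gave 355, 379 and 403 and match 695, 747 and 752, so both polyamides lay above the hormone alone (0.98 for mismatch, 0.92 for match). The other raised gene with the palindrome, CMKLR2, a receptor for chemerin, had 11.2, 35.2 and 26.4 with mismatch and 20.3, 24.0 and 12.8 with mifepristone, which overlap (0.17, adjusted p = 0.71). Promoter windows were matched for 104 of the 139 raised genes. The palindrome was in 2 of the 104, in 0.209% of 12931 windows of tested genes and in 0.330% of all 27305 windows. The single hexamer AGAACA, searched on both strands and able to overlap the palindrome, was in 9 of the 104 (8.65%), against 8.45% of tested genes and 12.4% of all windows; 3 were among the 72 genes higher with mismatch and 6 among the 32 that were not. TGCGCNC was in 24 of the 104 (23.1%), against 24.1% of tested genes and 16.9% of all windows. A match describes letters only, and most receptor binding lies outside such windows.

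Genes lowered by the hormone were lower with mismatch than with mifepristone in most cases. CYP24A1, the vitamin D 24-hydroxylase, had 586, 700 and 621 on the mismatch arrays, against 2587, 2435 and 2199 on the mifepristone arrays. It had 621, 502 and 643 with dexamethasone alone and 2641, 2760 and 2864 in non-treated cells, so mismatch overlapped the hormone alone. The difference was -1.90 (SE 0.10, adjusted p = 2.6e-11). SLC7A11, the cystine transporter that feeds glutathione synthesis, had 449, 453 and 417 with mismatch, against 1836, 1785 and 1539 with mifepristone (-1.93, SE 0.08, adjusted p = 1.7e-12). HMOX1, heme oxygenase 1, had 500, 424 and 603 with mismatch, against 1647, 2262 and 2181 with mifepristone (-1.96, SE 0.12, adjusted p = 4.0e-10). Both are targets of NRF2, the regulator of antioxidant genes. Of 23 NRF2 targets 13 were lower (12.4% of all genes), 1 (KEAP1, 0.41) higher (17.1%) and 9 not called, with a median of -0.22. Dexamethasone lowered 10 of them (3.60% of all genes were lowered), of which 6 were lower with mismatch, while NQO1 (0.07, adjusted p = 0.27) was called in neither comparison.

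Other strongly lowered genes showed the same order. ST8SIA4, a polysialyltransferase, had 7.27, 6.14 and 7.72 on the mismatch arrays, against 105, 91.8 and 103 on the mifepristone arrays (-2.33, SE 0.14, adjusted p = 2.5e-10). TM4SF20 had 158, 132 and 150 against 648, 590 and 609 (-1.96). Among inflammatory genes, TNFSF15, a TNF-family cytokine, had 41.8, 52.5 and 43.0 with mismatch against 188, 158 and 136 with mifepristone (-1.51, SE 0.14, adjusted p = 1.1e-07), with -0.46 (adjusted p = 0.14) on a second probe set. IL11 differed by -1.15 (adjusted p = 0.00055), with 0.34 (adjusted p = 0.49) on a second probe set, and CCL2, a monocyte chemokine, by -1.37 (adjusted p = 9.0e-06). Of 26 inflammatory genes tested 7 were lower, 4 higher and 15 not called, with a median of -0.14, beside 12.4% lower and 17.1% higher over all genes, and 6 of the 12 that dexamethasone lowered were lower. Match raised 14 of the 26 against dexamethasone alone (21.5% of all genes). CXCL8, a neutrophil chemokine, differed by -0.53 (adjusted p = 0.077), and a second probe set was lower with mismatch (-0.78, adjusted p = 0.0061) and lowered by dexamethasone (-0.82, adjusted p = 0.015).

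A few genes went against the hormone's direction. NR4A2, an orphan nuclear receptor and immediate early gene that dexamethasone lowered by 1.83, had 126, 104 and 130 on the mismatch arrays, against 58.0, 54.6 and 50.4 on the mifepristone arrays (0.95, SE 0.11, adjusted p = 3.2e-06). Match with the hormone gave 1040, 981 and 934, against 18.6, 13.3 and 19.3 with dexamethasone alone. IER3, another immediate early gene, had 1191, 1104 and 1142 with mismatch against 684, 604 and 669 with mifepristone (0.80, adjusted p = 6.5e-08). STAMBPL1 (0.48) and LRATD2 (0.82) complete the 4 genes lowered by the hormone and higher with mismatch. All 4 were also above dexamethasone alone with match, by 1.93 for STAMBPL1 and 2.59 for LRATD2.

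Another 11 genes that dexamethasone raised were lower with mismatch than with mifepristone. NAV2, a neuron navigator protein of a long gene, had 36.3, 35.9 and 37.7 on the mismatch arrays, against 118, 135 and 129 on the mifepristone arrays. Match gave 26.9, 24.4 and 36.8 and dexamethasone alone 266, 247 and 250, so both polyamides lay below every other group (-1.44 for mismatch minus mifepristone, SE 0.18, adjusted p = 3.7e-06). On 4 other NAV2 probe sets the difference was -0.14 to 0.26, and neither it nor the hormone's effect was called. TANC2, a synaptic scaffold protein, had 54.5, 58.5 and 59.7 with mismatch against 268, 266 and 211 with mifepristone (-1.84, adjusted p = 5.2e-09). HIPK2, a kinase upstream of p53, had 232, 268 and 272 with mismatch against 650, 692 and 472 with mifepristone (-1.17). The others were SDK2 (-1.09), ZBTB20 (-0.99), KLHL4 (-0.77), NR1D2 (-0.68), NEDD4 (-0.59), AKAP13 (-0.41), HPCAL1 (-0.34) and PDK4 (-0.26). AKAP13 rests on 1 probe set, since 5 others that dexamethasone raised gave -0.30 to 0.26, none called, and 2 other tested SDK2 probe sets gave -0.60 (adjusted p = 0.057) and 0.28 (adjusted p = 0.65). The median genomic span of these 11 genes, from first to last annotated base, was 216 kb, that of the 27 raised genes not called was 50.9 kb and that of the 101 higher genes was 25.4 kb.

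Gene span divided the kept response. Of 83 raised genes spanning under 50 kb, 68 were higher with mismatch and 2 lower, with a median of 0.90. Of 40 spanning 50 to 150 kb, 28 were higher and 1 lower, with a median of 0.84. Of 16 spanning 150 kb or more, 5 were higher and 8 lower, with a median of -0.32. In these 16 long genes the median against dexamethasone alone was -1.42 for mismatch, -0.95 for mifepristone and -2.09 for match. All 16 were called lower than dexamethasone alone with either polyamide (11.8% of all genes for mismatch, 17.4% for match). With mifepristone 14 were called lower (2.76%). Among 1543 long genes that dexamethasone did not call, 589 were lower with mismatch, 730 with match and 7 with mifepristone. The dexamethasone arrays also chose the 16 genes. Genes that dexamethasone did not call had the same order of medians by span: 0.13 over 10391 short genes, -0.04 over 3286 and -0.30 over 1543 long ones. Of those 1543 long genes 40.8% were lower and 1.62% higher with mismatch, so the 8 of 16 lower among the raised long genes is near the share among long genes at large. The 5 of 16 higher (31.25%) were well above the 1.62% of those genes. Spans come from RefSeq annotation.

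**Figure D4:**
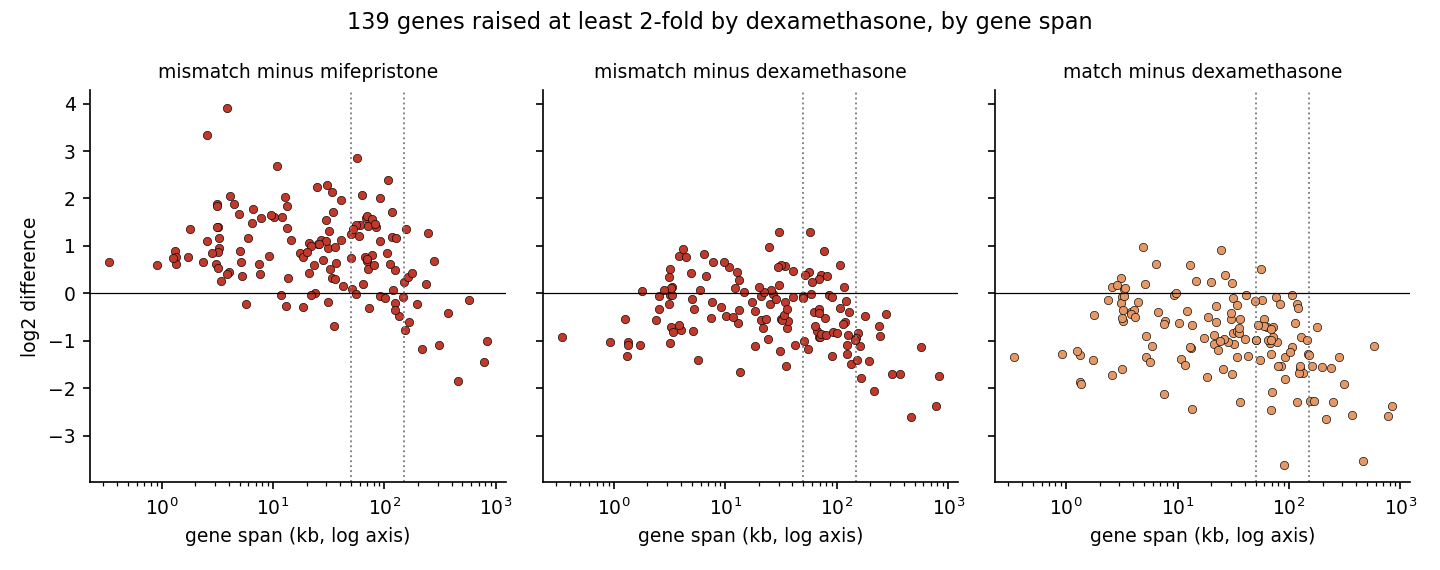
The 139 genes raised at least 2-fold by dexamethasone, with genomic span in kb on a log x axis and the log2 difference on the y axis, in 3 panels for mismatch minus mifepristone, mismatch minus dexamethasone and match minus dexamethasone. Dotted lines mark 50 and 150 kb. In the first panel most genes under 50 kb lie above 0, while 10 of the 16 genes at 150 kb or more lie below it.

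The match arrays were used to sort the responsive genes by whether match moved them from the level of dexamethasone alone. The raised genes that match left uncalled had a median match minus dexamethasone difference of -0.13, so match too held them near that level. Those that match called lower had a median of -1.21. Of the 29 raised genes that match minus dexamethasone did not call, 24 were higher with mismatch than with mifepristone, with a median of 1.31. Of the 101 that match called lower, 68 were higher and 11 lower, with a median of 0.66, and all 9 that match called higher were higher here too, with a median of 1.48. Among the lowered genes, 15 of 17 that match did not call were lower with mismatch (median -0.99), 21 of 33 that match called higher were lower (median -0.43), and all 5 that match called lower were lower (median -1.37). The choice of these genes and the match comparison share the dexamethasone arrays, and neither uses the 6 arrays compared.

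Every gene called between mismatch and mifepristone was then sorted by which other comparison called it in the same direction, where dexamethasone raised 3.19% and lowered 3.60% of all genes and match raised 21.5% and lowered 17.4%. Of 2795 genes higher with mismatch, 202 (7.23%) were also raised by dexamethasone and not by match, 1647 (58.9%) were raised by match and not by dexamethasone, 48 (1.72%) by both and 898 (32.1%) by neither. Their median differences were 0.70, 0.51, 0.98 and 0.49 in the same order. Of 2028 genes lower with mismatch, 151 (7.45%) were lowered by dexamethasone and not by match, 1360 (67.1%) by match and not by dexamethasone, 102 (5.03%) by both and 415 (20.5%) by neither, with medians of -0.54, -0.63, -0.94 and -0.46. Both sorting comparisons use the dexamethasone arrays, with opposite signs, which can keep genes out of the class of both. With match set against the mean of dexamethasone and non-treated, 118 higher genes fell under both and 132 under dexamethasone only. For the lower genes these counts were 168 and 85. Over all genes, the correlation of match minus dexamethasone with mismatch minus mifepristone, which share no arrays, was 0.59.

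**Figure D5:**
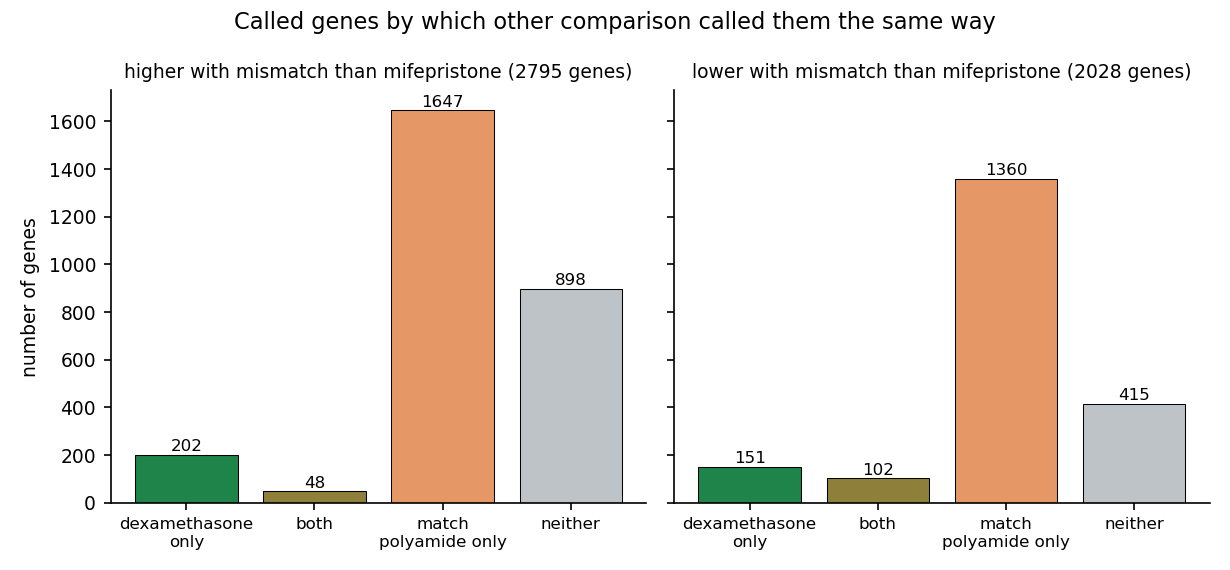
Number of genes called higher (left) and lower (right) with mismatch than with mifepristone, split by whether dexamethasone minus non-treated only, both, match minus dexamethasone only, or neither called them in the same direction. Bars are counts and start at 0. The match-only bars hold 1647 of 2795 higher and 1360 of 2028 lower genes.

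Some genes were above both mifepristone and the hormone alone. GMPR, which recycles guanine nucleotides, had 289, 237 and 241 on the mismatch arrays, against 20.7, 30.5 and 14.3 on the mifepristone arrays, and 93.2, 89.0 and 101 with dexamethasone alone. The difference was 2.86 from mifepristone (SE 0.18, adjusted p = 3.8e-10) and 1.29 from dexamethasone. GRAMD4 had 521, 553 and 544 with mismatch against 91.7, 113 and 70.0 with mifepristone (2.39, with 0.38 and adjusted p = 0.40 on a second probe set), and CDH16, a kidney-type cadherin, 132, 76.9 and 125 against 3.12, 6.39 and 0.892 (2.69). RASD1, a Ras relative first found as dexamethasone-induced in other cells, had 384, 375 and 385 with mismatch, against 9.56, 31.0 and 24.1 with mifepristone (3.45, SE 0.21, adjusted p = 2.6e-10). Here dexamethasone alone gave 17.3, 22.6 and 10.3 and match 453, 251 and 389, so it was high on the arrays of both polyamides and low on the others. INPP1, an inositol phosphatase, had 1152, 1015 and 1056 against 206, 237 and 177 (2.30).

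Gene groups in which dexamethasone left most members uncalled also differed. Dexamethasone raised 2 of 23 p53 targets and lowered 3, and it raised 1 of 19 interferon-response genes and lowered 1. Of 23 genes of the endoplasmic reticulum stress and ATF4 pathways it raised 3 and lowered 4. Over all genes it raised 3.19% and lowered 3.60%. These lists were drawn with earlier results of these arrays known, so their direction is not independent evidence. Of 23 p53 targets 16 were higher (17.1% of all genes) and 7 not called, with a median of 0.79. MDM2, the ubiquitin ligase of p53, differed by 1.37, the death receptor FAS by 1.09 and the phosphatase PPM1D by 1.08. Match raised 20 of the 23 against dexamethasone alone (21.5% of all genes). With the hybridization controls 8 of the 23 were higher, with a median of 0.37. Of 19 interferon-response genes 12 were higher (17.1% of all genes) and 7 not called, with a median of 0.80. The 12 include IFIT1 (1.26), ISG15 (1.22) and IRF7 (1.21), and match raised 12 of the 19 (21.5% of all genes). With the hybridization controls 5 were higher, with a median of 0.51. Of 23 genes of the endoplasmic reticulum stress and ATF4 pathways 9 were higher (17.1% of all genes), such as CHAC1 (1.26) and ASNS (0.98). Another 7 were lower (12.4%), such as the folding enzyme PDIA4 (-0.77), and 7 were not called. The median of 0.19 was -0.07 on the signals as deposited and -0.21 with the hybridization controls.

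Many matrix and adhesion genes were lower with mismatch. Of 24 TGF-beta and matrix genes 15 were lower (12.4% of all genes), 3 higher (17.1%) and 6 not called, with a median of -0.59. Fibronectin FN1 differed by -2.23, the TGF-beta target PMEPA1 by -2.08, the latent TGF-beta binding protein LTBP1 by -1.55 and TGFBI by -1.33. Other tested FN1 probe sets gave -2.33 to -2.61, except for -0.46 (adjusted p = 0.097) and -0.69 (adjusted p = 0.10). Those of PMEPA1 gave -1.39 and -0.63, and dexamethasone lowered both (-1.10 and -0.69). Of the 24 genes dexamethasone lowered 4 (3.60% of all genes), all lower with mismatch, and raised 4 (3.19%), of which 3 were higher. Match lowered 16 (17.4%) and raised 3 (21.5%). Of 19 receptor tyrosine phosphatases and adhesion scaffolds 13 were lower (12.4% of all genes) and 6 not called, with a median of -1.79. The 13 include PTPRK (-2.74, with -0.17 and adjusted p = 0.64 on a second probe set), PTPRM (-2.64) and DOCK4 (-2.76). Match lowered 12 of the 19 (17.4% of all genes). Of the 8 genes with the largest falls all but VCAN (111 kb, -2.83) spanned far more than 150 kb. IMMP2L, a mitochondrial peptidase subunit spanning 900 kb, had 3.92, 5.41 and 2.21 on the mismatch arrays, against 192, 167 and 188 on the mifepristone arrays (-3.32), and match minus dexamethasone was -3.38. GPC6 (1191 kb) differed by -3.23, EXOC4 (848 kb) by -3.21 and SMYD3 (758 kb) by -2.92. Other probe sets gave -1.20 for GPC6, and -1.30 and 0.15 (adjusted p = 0.63) for EXOC4.

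In housekeeping groups, whose counts stand beside 17.1% higher over all genes, most members were not called. Of 24 cell cycle genes 3 were higher and 21 not called, with a median of 0.11. Of 16 ribosomal protein genes RPL11 (0.15) and RPS3 (0.13) were higher and 14 not called, with a median of 0.01. Of 14 cholesterol synthesis genes 4 were higher, led by HMGCS1 (0.87) and ACAT2 (0.72), and 10 not called, with a median of 0.15. With the hybridization controls these medians were -0.25, -0.15 and -0.24, close to that of all genes. With arrays scaled to 1 trimmed mean 9 of the 24 cell cycle genes were higher (median 0.16) and 11 of the 16 ribosomal protein genes (median 0.27). Among 9 epithelial markers CLDN7 (1.69), EPCAM (0.90), KRT19 (0.56) and ELF3 (0.32) were higher, CDH1 lower and 4 not called, with a median of 0.17 (-0.06 with the hybridization controls), and of 5 leukocyte markers 1 (ITGAM, 0.61) was higher.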

How the data were processed

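RNA of the 15 arrays was labelled with biotin for Affymetrix hybridization, per the labels' protocols. The deposited values are linear intensity signals per probe set, which the authors computed by MAS5 (per the submitters' processing notes); the sources used here name no version or scaling target. The arrays differed in scale, so signals were quantile normalised and log2(signal + 16) taken, which understates changes of dim genes. Of 54675 probe sets, 39744 (72.7%) exceeded their own array's 40th percentile on at least 3 arrays, control probe sets aside, and were tested. limma 3.58.1 (R 4.3.3, trended eBayes) fitted 1 coefficient per group to all 15 arrays, leaving 10 residual degrees of freedom with 9.36 from the prior. Benjamini-Hochberg adjustment ran over the tested probe sets, and an adjusted p under 0.05 was a call. The number of arrays limits the precision, and since separate cultures are not stated, p-values measure only the spread between arrays, which may be technical.

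A gene was represented by 1 probe set carrying its symbol alone, not ending in _x_at where possible, with the highest mean, which left 16358 genes. Platform symbols were updated through gene identifiers for 41043 of 41097 single-symbol probe sets. Named genes were the 8 most raised and 8 most lowered, the hormone-responsive genes with the largest hormone effects that were kept (10 raised, 8 lowered) or not kept (6 and 4), those shared by both polyamides, and a set of known receptor targets; members of the lists serve as examples. PER1 had no tested probe set of its own. The members and lists were chosen with earlier results of these data known. The match polyamide, mifepristone and mismatch comparisons with dexamethasone alone are given side by side. Scripts were tested on simulated data. Scaling, pseudocount, filter, fold threshold, the choice of probe set and leaving out arrays were tried as alternatives.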

Additional observations from a re-analysis of the deposited data

How the results depend on the processing

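The medians of the raised and of the lowered genes kept their sign under every alternative run, but counts and sizes moved with the scaling and with the rule for responsive genes. On the signals as deposited, 922 probe sets were higher, the median of the raised genes was 0.55 and that of the lowered genes -1.15. With hybridization controls, 576 were higher and 8429 lower, with medians of 0.43 and -1.19 and -0.24 over all genes, 63 raised genes were higher and 1 lowered gene was higher; centring on medians gave 2804 higher. With all probe sets, 289 were raised, 162 of them higher and 32 lower, median 0.57. At any fold, 522 genes were raised (250 higher, 89 lower, median 0.27) and 589 lowered (253 lower, 109 higher, median -0.18). At 4-fold, 21 were raised (19 higher, 1 lower, median 1.28) and 4 lowered (4 lower, 0 higher, median -1.70). A pseudocount of 64 gave 89 raised (7 lower with mismatch) and 21 lowered (17 lower, 2 higher, median -0.51), and one of 1 gave 108 lowered (12 higher, median -0.44).

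Among genes higher with mismatch, those raised by dexamethasone only numbered 94 as deposited, 66 with hybridization controls and 132 with match set against the mean of dexamethasone and non-treated; by match only, 284 as deposited, 813 centred on medians and 196 with hybridization controls; by both, 12, 19, 17 and, with that mean, 118; by neither, 166 as deposited and 72 with hybridization controls. Among genes lower with mismatch, dexamethasone only gave 90 as deposited and 85 with that mean; both gave 16 as deposited, 57 centred on medians, 13 with hybridization controls, 64 with no variance trend and 168 with that mean; neither gave 1118 as deposited and 2435 with hybridization controls. The cause was not tested beyond the shift of all genes that the scaling itself makes.

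Leaving out 1 array at a time gave 3740 to 4743 probe sets higher and 3729 to 4552 lower. It gave 138 to 146 raised genes, of which 98 to 108 were higher and 8 to 12 lower, with a median of 0.77 to 0.85, and 55 to 64 lowered genes, of which 37 to 44 were lower and 4 to 5 higher, with a median of -0.85 to -0.54, the last without replicate 3 of dexamethasone alone. Among genes higher with mismatch the ranges were 180 to 209 for dexamethasone only, 1419 to 1650 for match only, 33 to 49 for both and 662 to 1066 for neither, and among genes lower with mismatch 120 to 166, 1200 to 1362, 68 to 107 and 313 to 496, with the median of all genes at 0.06 to 0.07.

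Of 105 named genes, 79 kept direction and call with the hybridization controls, 20 lost the call, 2 gained it and 4 reversed: CIDEC (-0.10), INSIG1 (-0.11), RPL11 (-0.033) and RPS3 (-0.054). ZBTB16, not called, ran from -0.11 without replicate 1 of mifepristone to 0.50 without its replicate 2. The sources used here do not say whether replicate numbers pair the arrays. Deviations of same-numbered mismatch and mifepristone arrays correlated at -0.03, 0.07 and 0.08, which with 3 arrays a group cannot settle it. With the replicate number as a block 4616 probe sets were higher and 4411 lower, and 138 genes were raised, 102 of them higher.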

Other observations

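A small set of genes set the mismatch arrays apart from all 4 other groups, and were called neither between dexamethasone and non-treated nor between match and dexamethasone; the set was chosen after the values were seen and carries no test of its own. Called the same way against each of the 4, and at least 2-fold from mifepristone, were 16 genes higher and 5 lower; from the other groups some differed by less. TNNC1, slow and cardiac troponin C, had signals of 81.1, 93.0 and 54.5 on the mismatch arrays, against 4.02, 7.57 and 3.22 on the mifepristone arrays (log2 difference 2.12). MSLN, the surface antigen mesothelin, had 73.1, 79.1 and 76.5 on the mismatch arrays, against 22.1, 21.0 and 17.4 on the mifepristone arrays (1.35), and differed by 0.87 from dexamethasone alone and 0.47 from match. PALM3 (1.53), DHDH (1.40), SLC22A17 (1.33) and TBX1, a T-box transcription factor (1.32, and 0.59 from match), were also higher. On the lower side, PTCH1, the receptor of hedgehog ligands, had 33.0, 37.8 and 26.1 on the mismatch arrays, against 95.1, 83.1 and 100 on the mifepristone arrays (-1.17, and -0.51 from match), and RTN4RL2 differed by -1.45, RNF213 by -1.15, RPTOR, a subunit of the mTORC1 kinase complex, by -1.06 and TRRAP by -1.03.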
